A study of Mus musculus with 9 samples.

Results

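The genes that build cholesterol and fatty acids were compared between GFP+Yap+ and Tm+Yap− pancreatic ductal adenocarcinoma (PDAC) cells sorted from mouse tumors. The set holds 36 of the 47643 genes in the deposited count files. They are named enzymes and regulators of the pathways, chosen by symbol with earlier results of these data known. They comprise 18 enzymes of cholesterol synthesis, 5 regulators and carriers of sterols, and 13 genes of the fatty acid arm, and the sterol and fatty acid arms were analyzed apart.

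The alleles of KPF mice include Trp53 frt/+, Pdx-Flp and R26 FSF-CreER/Dual, and KPYYF mice carry the same alleles as KPF mice with Yap flox/flox in addition. Pdx1-Flp recombines the Flp-dependent alleles, Trp53 among them, in the pancreas, and the Dual reporter then labels the cells with EGFP. Once tumors could be felt, both cohorts received a diet with tamoxifen (TAM), having had none in their first 2 months, so that CreER could exchange EGFP for tdTomato (Tm) and, in KPYYF cells, delete Yap. The libraries were made from cells sorted by FACS, 6 of GFP+ cells from KPF mice and 3 of Tm+ cells from KPYYF mice, the latter taken from nodules that had relapsed without Yap. Reporter color, Yap status and genotype thus differ between the same libraries and cannot be told apart. KPF libraries 4504h and 4504s bear the same mouse number, and the age of the mice at collection is not given in the sources used here. The p values treat these 2 libraries as separate, and the spread between them may be technical.

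Cholesterol is made from acetyl-CoA through mevalonate, farnesyl diphosphate, squalene and lanosterol, and a chain of enzymes in the endoplasmic reticulum trims lanosterol to cholesterol. Fatty acids are made from the same acetyl-CoA by carboxylation and repeated condensation, and are then lengthened by elongases and given double bonds by desaturases. Both arms are controlled by SREBP transcription factors, SREBP-2 mainly for sterols and SREBP-1 mainly for fatty acids, which SCAP escorts to the Golgi for activation and INSIG proteins hold back when sterols are abundant.

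Between 8264587 and 9635514 reads were counted on genes in KPF libraries, and 8116539, 8685875 and 8725132 in KPYYF libraries. Counts are given as CPM, the reads of a gene scaled by TMM to a common library size. Fold changes are log2 values of KPYYF over KPF, fitted by the quasi-likelihood test of edgeR, and adjusted p values are those of Benjamini and Hochberg over the 14105 genes that could be tested. Yap1 was at 41.8 to 151 CPM in KPF and 0.712 to 7.12 CPM in KPYYF libraries. This was a log2 fold change of −4.79 with a standard error (SE) of 0.72 and an adjusted p of 0.0159 in edgeR, which became 0.0553 without KPYYF library 4891. The 9 markers of ductal epithelium were all detected, with a summed level of 3579 to 11955 CPM in KPF and 648 to 2147 CPM in KPYYF libraries. Xist, which the inactive X chromosome expresses, was low (71 to 159 reads) in KPF libraries 4269, 4515 and 4601 only. Acinar marker sums stood apart in KPF library 4504s (20602 CPM) and KPYYF library 4449 (6278 CPM), against 73.6 to 1014 CPM in the others. Immune marker sums stood apart in KPF libraries 4601 (8432 CPM) and 4504s (2495 CPM), against 423 to 744 CPM in the others. Values without 4504s, 4601 and 4449 are therefore given where they alter a result. In RNA from pooled cells, fewer cells of a type and less RNA per cell cannot be told apart.

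The lipid synthesis genes lay on both sides of 0. Among the 35 members tested, 18 had a log2 fold change above 0 and 17 below 0, with a median of 0.14 beside −0.07 over all genes tested. In edgeR's quasi-likelihood test, 0 members had an adjusted p under 0.05, where 0.305% of all genes tested were higher and 0.794% lower, and the smallest adjusted p of a member was 0.118. At an unadjusted p under 0.05 there were 6 of the 35 members, beside 16.1% of all genes tested. The DESeq2 Wald test put 2 members (Elovl5 and Hsd17b7) higher and 1 (Me1) lower at an adjusted p under 0.05, where it put 1.91% of all genes tested higher and 6.58% lower. With limma-voom there were 0 such members, where 0.305% of all genes tested were higher and 0.312% lower. The rule of the study's methods was an unadjusted p under 0.05 with a change of more than 2-fold, there with DESeq2. Applied here to edgeR's p values, it put 3 members higher, Hsd17b7, Scd1 and Elovl5, and 2 lower, Ebp and Me1. In edgeR the same rule held for 4.20% of all genes tested in the higher and 9.20% in the lower direction. With DESeq2 p values 4 members were higher by the rule, Insig1 in addition, and 2 lower, Ebp and Me1. There it held for 636 of the 14105 genes tested in the higher and 1698 in the lower direction. Every KPYYF library lay above every KPF library for 0 members, where 3.92% of all genes tested did so, and below for 2, Ebp and Me1, where 5.18% did so. The remaining member, Idi1, an isomerase of the mevalonate branch, had 25 reads over all 9 libraries (0 to 1.21 CPM), which was below the minimum of 100, and was not tested. Reads that did not align uniquely were not counted, 43.8 to 48.5% of all reads in KPF and 49.2 to 53.4% in KPYYF libraries. Their part in the low count of Idi1 was not tested.

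**Figure D1:**
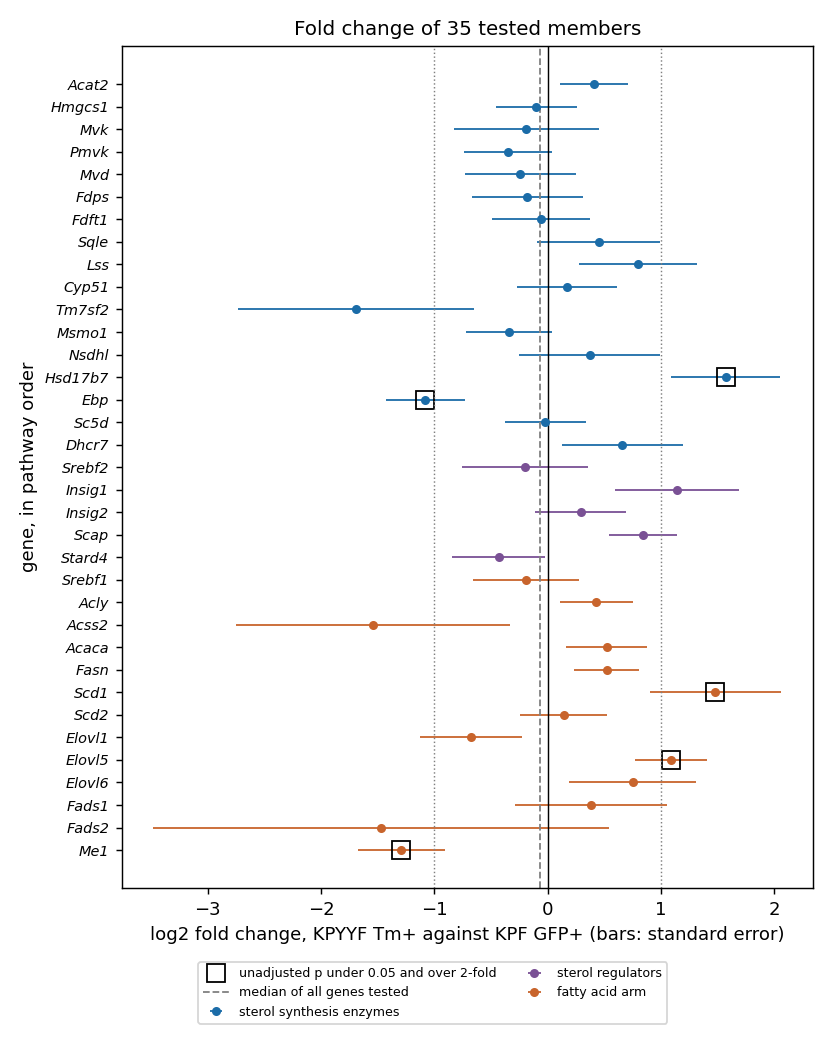
Log2 fold change of each of the 35 tested members, KPYYF Tm+ against KPF GFP+ libraries, in pathway order, with bars of 1 standard error. The 5 squares mark an unadjusted p under 0.05 with more than 2-fold change, and they lie on both sides of 0, from −1.29 for Me1 to 1.57 for Hsd17b7, while the dashed line is the median of all genes tested, −0.07.

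To show what stands upstream of these genes, the windows from 250 bases before to 50 bases after the start were searched for 3 sequence elements on both strands. The elements were TCACNCCAC, a form of the sterol regulatory element, CCAAT, the element of NF-Y, and GGGCGG, the GC box of Sp1, and none contains another. RefSeq on GRCm38.p6 held a window for 29 of the 36 members, and Fdps, Fdft1, Sqle, Stard4, Scd1, Scd2 and Fads1 had none. TCACNCCAC was found in 1 of the 29, Hmgcs1, and in 1.44% of the 27025 genes with a window, where a gene counts if any of its windows holds the element. CCAAT was found in 24 of the 29, and in 41.1% of the genes. GGGCGG was also found in 24 of the 29, and in 38.2% of the genes. Among the 15 sterol enzymes with a window, 14 held CCAAT and 14 GGGCGG, while of the 10 fatty acid genes 7 held CCAAT and 6 GGGCGG. A match is a run of letters and not a site shown to be bound.

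The 250 bases before the start are printed here for Hmgcs1 (chr13:119690101-119690350, plus strand), the only 1 of the 29 members with a window that held TCACNCCAC, and for 4 of the 5 members that met the study's rule, Hsd17b7 (chr1:169969206-169969455, minus strand), Ebp (chrX:8193513-8193762, minus strand), Elovl5 (chr9:77917115-77917364, plus strand) and the first window of Me1 (chr9:86695915-86696164, minus strand). They run 5′ to 3′ on the strand of the gene, and capitals mark the elements in either orientation.
Hmgcs1: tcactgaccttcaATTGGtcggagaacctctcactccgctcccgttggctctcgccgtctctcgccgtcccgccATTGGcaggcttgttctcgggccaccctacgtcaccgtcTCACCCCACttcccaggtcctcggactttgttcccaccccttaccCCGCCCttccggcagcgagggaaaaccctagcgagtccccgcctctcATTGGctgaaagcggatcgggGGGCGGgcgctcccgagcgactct
Hsd17b7: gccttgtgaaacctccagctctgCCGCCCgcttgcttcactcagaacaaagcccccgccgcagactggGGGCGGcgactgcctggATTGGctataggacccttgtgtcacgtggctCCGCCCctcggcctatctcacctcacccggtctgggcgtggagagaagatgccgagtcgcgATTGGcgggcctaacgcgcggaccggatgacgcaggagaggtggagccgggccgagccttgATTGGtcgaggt
Ebp: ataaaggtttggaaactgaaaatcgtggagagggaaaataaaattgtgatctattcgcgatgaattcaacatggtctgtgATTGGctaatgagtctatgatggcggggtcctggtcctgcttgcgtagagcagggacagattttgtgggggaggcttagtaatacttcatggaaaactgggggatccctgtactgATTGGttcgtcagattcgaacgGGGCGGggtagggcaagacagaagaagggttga
Elovl5: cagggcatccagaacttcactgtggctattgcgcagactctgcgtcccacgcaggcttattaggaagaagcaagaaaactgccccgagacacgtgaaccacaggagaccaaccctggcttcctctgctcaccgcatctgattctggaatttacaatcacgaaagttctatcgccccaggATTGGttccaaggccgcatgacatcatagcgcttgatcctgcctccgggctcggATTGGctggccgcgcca
Me1: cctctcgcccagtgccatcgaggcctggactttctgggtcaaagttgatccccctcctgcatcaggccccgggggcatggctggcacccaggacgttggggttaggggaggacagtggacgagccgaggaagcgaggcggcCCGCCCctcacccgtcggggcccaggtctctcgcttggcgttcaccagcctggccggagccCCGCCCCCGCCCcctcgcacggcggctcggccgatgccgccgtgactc
Hsd17b7, which was higher in KPYYF libraries, held 3 CCAAT and 3 GGGCGG matches, and Ebp, which was lower, held 2 and 1. Elovl5, which was higher, held 2 CCAAT and 0 GGGCGG matches, and Me1, which was lower, held 0 and 3 in the 250 bases shown. Genes with either direction therefore carried these elements.

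Of the 17 cholesterol synthesis enzymes tested, 7 had a log2 fold change above 0 and 10 below 0. The median was −0.06, near the −0.07 of all genes tested, with a range from −1.69 for Tm7sf2 to 1.57 for Hsd17b7. The median rested on single KPYYF libraries, since it was 0.24 without library 4449, −0.32 without library 4938, and 0.45 without KPF libraries 4504s and 4601 and KPYYF library 4449 together. By the study's rule, 1 enzyme was higher, Hsd17b7, and 1 lower, Ebp.

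The enzymes from acetyl-CoA to farnesyl diphosphate differed little between the groups. Acat2, which joins acetyl-CoA units, had the highest log2 fold change among them, 0.41 (SE 0.30), and Pmvk, phosphomevalonate kinase, the lowest, −0.35 (SE 0.39). Hmgcs1, the HMG-CoA synthase with the sterol element shown above, was at 188 to 502 CPM in KPF (median 303) and at 235, 302 and 400 CPM in KPYYF libraries. All 3 KPYYF values of Hmgcs1 lay inside the KPF range, and its log2 fold change was −0.10 (SE 0.36). Mvk, mevalonate kinase, was at 14.8 to 39.2 CPM in KPF libraries and at 2.85, 47.6 and 24.5 CPM in KPYYF libraries 4449, 4891 and 4938. It is named for this spread, seen in its values: the lowest and the highest level of all 9 libraries both came from KPYYF. Mvd and Fdps, the decarboxylase of this branch and farnesyl diphosphate synthase, had log2 fold changes of −0.24 and −0.18, and both were lowest in KPYYF library 4449.

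Around squalene, Fdft1, squalene synthase, had a log2 fold change of −0.06 and Sqle, squalene epoxidase, 0.45 (SE 0.54). Sqle was at 29.0 to 88.2 CPM in KPF libraries and at 15.7, 53.8 and 138 CPM in KPYYF libraries 4449, 4891 and 4938. As for Mvk, 1 KPYYF library was below and 1 above the whole KPF range. Lss, lanosterol synthase, which closes the sterol rings, lies on chromosome 10 from 76531588 to 76557138 and overlaps an antisense gene, 4930483K19Rik. It was at 4.71 to 23.5 CPM in KPF (median 15.2) and at 31.1, 22.6 and 19.1 CPM in KPYYF libraries 4449, 4891 and 4938. The KPYYF values were in the upper part of the KPF range or above it, and the difference did not pass (log2 fold change 0.80, SE 0.52, edgeR adjusted p = 0.492; exact permutation test, p = 0.107).

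The largest differences among the sterol enzymes were found after lanosterol, and they ran in both directions. Hsd17b7, the 3-ketosteroid reductase that completes removal of the C4 methyl groups (ENSMUSG00000026675, chromosome 1, 169949535 to 169969241), was at 7.58 to 42.6 CPM in KPF (median 20.7) and at 54.3, 37.3 and 106 CPM in KPYYF libraries 4449, 4891 and 4938. Only KPF library 4515 reached into the KPYYF range, and library 4938 was the highest of all 9. The means were 22.2 ± 11.7 CPM (SD, n = 6) and 66.0 ± 36 CPM (SD, n = 3), with a fitted fold of 2.96. The log2 fold change of 1.57 (SE 0.48) had an unadjusted p of 0.00603 and an adjusted p of 0.129 in edgeR's quasi-likelihood test, with p = 0.0357 from the exact permutation test of log2 CPM. If KPYYF library 4938 was left out, the log2 fold change was 1.04 and the unadjusted p 0.0793.

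Ebp, the sterol isomerase that moves the double bond of the B ring (ENSMUSG00000031168, X chromosome, 8185329 to 8193512), was at 99.6 to 249 CPM in KPF (median 122) and at 52.4, 62.9 and 86.1 CPM in KPYYF libraries. All 3 KPYYF libraries lay below all 6 KPF libraries, and KPF library 4601, with the highest immune marker sum, was highest. The means were 142 ± 56.2 CPM (SD, n = 6) and 67.1 ± 17.3 CPM (SD, n = 3). Its log2 fold change was −1.08 (SE 0.35, unadjusted p = 0.00917, edgeR adjusted p = 0.155), and the exact permutation test gave p = 0.0119, the smallest that 84 assignments allow. It was −0.82 without KPF library 4601, −0.93 without KPYYF library 4449 and −0.55 without both of these and KPF library 4504s, each less than 2-fold. Within the libraries high in Xist, the log2 fold change of this X-linked gene was −0.88.

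Tm7sf2, a sterol C14 reductase that shares its position on chromosome 19 (6062821 to 6068373) with Vps51, was low throughout. It was at 3.48 to 10.2 CPM in KPF (median 5.54) and at 0.712, 3.83 and 0.986 CPM in KPYYF libraries 4449, 4891 and 4938. KPYYF library 4891 lay within the KPF range and the other two below it. Its log2 fold change of −1.69 carried a SE of 1.04 and did not pass (edgeR adjusted p = 0.467; exact permutation test, p = 0.0476). Without KPYYF library 4891 it was −2.79, with an unadjusted p of 0.0446 that met the study's rule, and within the libraries high in Xist it was −0.94. The other 5 enzymes of this stretch, Cyp51, Msmo1, Nsdhl, Sc5d and Dhcr7, overlapped between groups, with log2 fold changes from −0.34 for Msmo1 to 0.66 for Dhcr7. Cyp51, lanosterol demethylase, was at 78.5 to 196 CPM in KPF and at 45.5, 165 and 278 CPM in KPYYF libraries, again below, within and above the KPF range in the order 4449, 4891 and 4938.

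**Figure D2:**
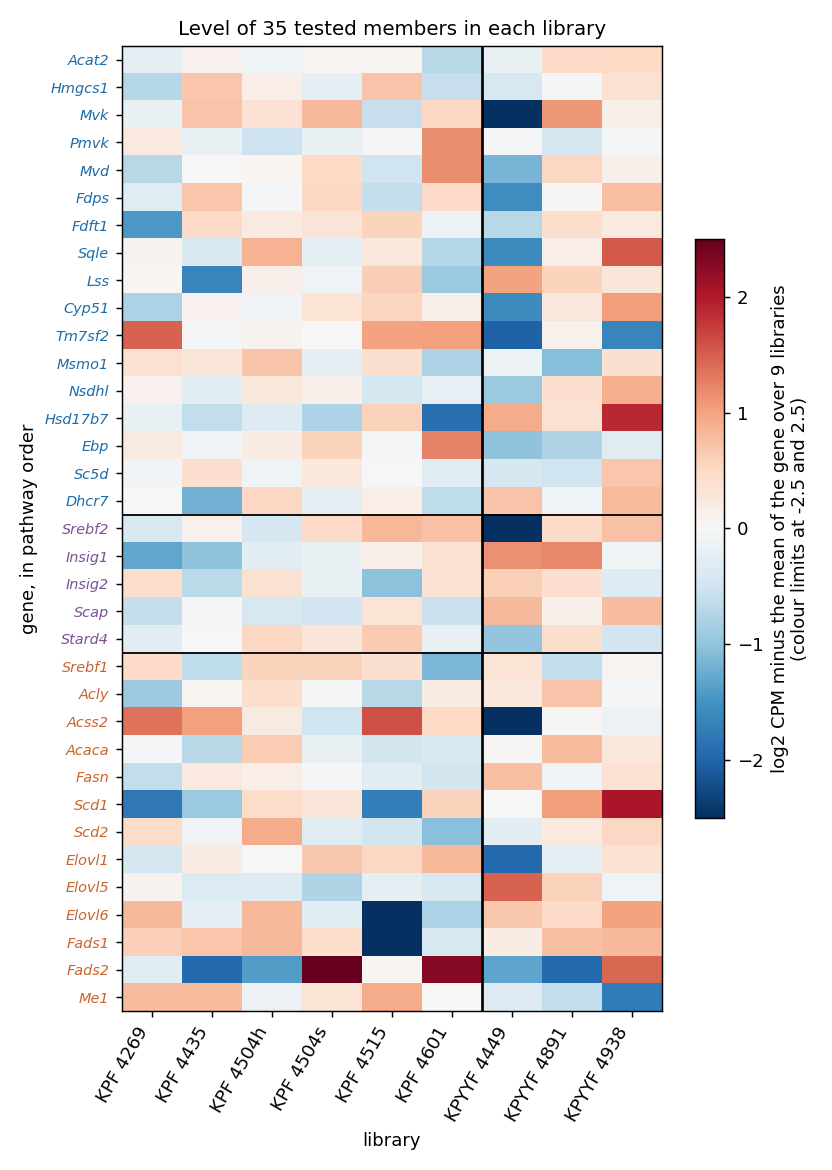
Level of each tested member in each library, as log2 CPM minus the mean of the gene over the 9 libraries, with genes in pathway order and a vertical line between KPF and KPYYF libraries. The KPYYF columns differ from each other, with 4449 blue (low) for many sterol enzymes, such as Mvk, and 4938 red (high) for Sqle, Cyp51 and Hsd17b7.

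The KPYYF libraries differed from each other on the sterol enzymes. Library 4449 was the lowest of all 9 for 8 of the 17 enzymes and below every KPF library for 9, with a median deviation of −0.70 from the gene means on the log2 CPM scale. Library 4938 was the highest of all 9 for 8 of the 17 and above every KPF library for 8, with a median deviation of 0.41. Library 4891 lay between them, with 0.17. The medians of the 6 KPF libraries lay between −0.20 and 0.16. Library 4449 was not low for all lipid genes, since Lss, Insig2, Scap, Fasn and Elovl5, 5 of the 35 members, were highest of all 9 there. It is also the KPYYF library with the high acinar marker sum. KPF library 4504s, with a higher acinar sum, had a median deviation of 0.06. These libraries differ in genotype and Yap status as well, and the part of acinar RNA in the sterol enzyme levels was not tested.

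**Figure D3:**
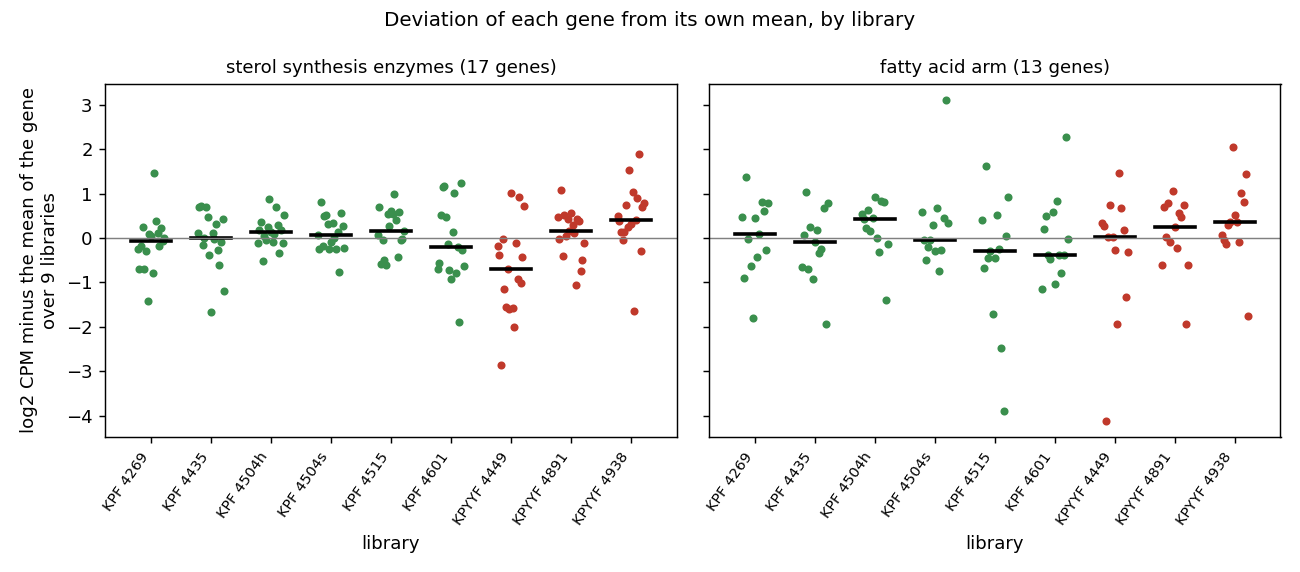
Deviation of each gene from its own mean over the 9 libraries (log2 CPM), by library, for the 17 sterol enzymes (left) and the 13 genes of the fatty acid arm (right). Dots are genes, black bars medians, green KPF and red KPYYF, and the sterol median runs from −0.70 in library 4449 to 0.41 in library 4938 while the fatty acid medians of the KPYYF libraries are 0.03, 0.25 and 0.35.

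The 5 sterol regulators and carriers had a median log2 fold change of 0.29, with 3 above and 2 below 0. By the study's rule 0 were called with edgeR's p values, and 1, Insig1, with those of DESeq2. At an unadjusted p under 0.05 in edgeR there was 1 of the 5, Scap, beside the 16.1% of all genes tested. Srebf2, which encodes SREBP-2 and contains Mir33 (chromosome 15, 82147181 to 82205379), was at 37.5 to 88.4 CPM in KPF (median 61.6) and at 8.31, 70.1 and 82.9 CPM in KPYYF libraries 4449, 4891 and 4938. A single KPYYF library, 4449, was far below the KPF range, and the other two were within it. The log2 fold change of −0.20 (SE 0.56, edgeR adjusted p = 0.910; exact permutation test, p = 0.440) turned to 0.31 without that library.

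Insig1, which retains the SCAP complex in the endoplasmic reticulum and is itself a target of SREBP (chromosome 5, 28071363 to 28078662), was at 4.57 to 15.2 CPM in KPF (median 9.83) and at 25.6, 27.0 and 10.8 CPM in KPYYF libraries 4449, 4891 and 4938. Libraries 4449 and 4891 were above every KPF library and 4938 was within their range, although 4938 had been the highest library for Sqle and Cyp51. Its log2 fold change was 1.14 (SE 0.55, unadjusted p = 0.0579, edgeR adjusted p = 0.333; exact permutation test, p = 0.0714). In the DESeq2 Wald test it was 1.16, with an unadjusted p of 0.0481 that met the study's rule and an adjusted p of 0.247. Insig2, its paralog, had 0.29 (SE 0.40).

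Scap, the escort of the SREBPs (chromosome 9, 110333288 to 110384950, overlapping the antisense gene 5830462I19Rik), was at 53.8 to 103 CPM in KPF (median 59.5) and at 141, 88.8 and 138 CPM in KPYYF libraries. Only KPF library 4515 exceeded the lowest KPYYF library. The log2 fold change was 0.84 (SE 0.30, unadjusted p = 0.0140, edgeR adjusted p = 0.178; exact permutation test, p = 0.0238), or 1.79-fold. It was 0.64 without KPF libraries 4504s and 4601 and KPYYF library 4449 (edgeR, unadjusted p = 0.121). Without KPYYF library 4449 alone it was 0.73 and without 4938 alone 0.75 (edgeR, unadjusted p = 0.0542 and 0.0555). In 16 of 19 alternatives the unadjusted p of Scap was under 0.05. Stard4, a carrier of cholesterol within the cell, was at 26.9 to 51.7 CPM in KPF (median 37.1) and at 16.5, 44.8 and 23.6 CPM in KPYYF libraries. Libraries 4449 and 4938 were below every KPF library and 4891 was within their range, with a log2 fold change of −0.43 (SE 0.41, edgeR adjusted p = 0.665; exact permutation test, p = 0.167).

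Of the 13 genes of the fatty acid arm, 8 had a log2 fold change above 0 and 5 below, with a median of 0.38. The median was 0.09 within the libraries high in Xist and 0.16 to 0.52 with each library left out in turn. By the study's rule, Scd1 and Elovl5 were higher and Me1 lower. The core enzymes that make palmitate were all on the higher side without passing: Acly, ATP citrate lyase, with 0.43 (SE 0.32), Acaca, acetyl-CoA carboxylase, with 0.52 (SE 0.36), and Fasn, fatty acid synthase, with 0.52 (SE 0.29, edgeR adjusted p = 0.406). Fasn was at 98.3 to 180 CPM in KPF and at 255, 143 and 193 CPM in KPYYF libraries, so that 1 of the 3 fell within the KPF range. Srebf1, the gene of SREBP-1, had −0.19 (SE 0.47), and overlaps Rai1 on the other strand.

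Me1 and Acss2, which supply NADPH and acetyl-CoA, lay on the lower side. Me1, cytosolic malic enzyme (ENSMUSG00000032418, chromosome 9, 86581371 to 86695953), was at 128 to 268 CPM in KPF (median 211) and at 113, 92.0 and 41.8 CPM in KPYYF libraries 4449, 4891 and 4938. All 3 KPYYF libraries lay below all 6 KPF libraries, 4938 most. The means were 201 ± 59.5 CPM (SD, n = 6) and 82.2 ± 36.5 CPM (SD, n = 3). Its log2 fold change of −1.29 (SE 0.38) had an unadjusted p of 0.00441 and an adjusted p of 0.118 in edgeR's quasi-likelihood test, and the exact permutation test gave p = 0.0119, the smallest possible. It was −0.97 without KPYYF library 4938, and −1.69 without KPF libraries 4504s and 4601 and KPYYF library 4449. Acss2, which activates acetate and overlaps Gss and Ggt7 on chromosome 2 (155517948 to 155585724), was at 2.51 to 11.6 CPM in KPF (median 6.47) and at 0, 3.72 and 3.29 CPM in KPYYF libraries. The 0 came from library 4449 and allows up to 0.356 CPM (3 reads, for counting error only), while the other two lay within the KPF range. Its log2 fold change of −1.54 had a SE of 1.21 (edgeR adjusted p = 0.585; exact permutation test, p = 0.0476).

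Desaturases and elongases split between the directions. Scd1, the stearoyl-CoA desaturase that makes oleate (ENSMUSG00000037071, chromosome 19, 44394455 to 44407879), was at 11.5 to 60.5 CPM in KPF (median 35.3) and at 40.7, 83.8 and 167 CPM in KPYYF libraries 4449, 4891 and 4938. Libraries 4891 and 4938 were above every KPF library and 4449 was within their range. The log2 fold change was 1.48 (SE 0.58, unadjusted p = 0.0264, edgeR adjusted p = 0.231; exact permutation test, p = 0.0833). It was 0.83 without library 4938, 1.23 within the libraries high in Xist, and 2.36 without KPF libraries 4504s and 4601 and KPYYF library 4449. Its paralog Scd2 was at 159 to 620 CPM in KPF and at 268, 386 and 467 CPM in KPYYF libraries, all within the KPF range, with a log2 fold change of 0.14 (SE 0.38).

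Elovl5, the elongase of polyunsaturated fatty acids (ENSMUSG00000032349, chromosome 9, 77917364 to 77984519), was at 92.8 to 166 CPM in KPF (median 125) and at 432, 232 and 146 CPM in KPYYF libraries 4449, 4891 and 4938. Only KPF library 4269 exceeded the lowest KPYYF library. The means were 127 ± 23.4 CPM (SD, n = 6) and 270 ± 147 CPM (SD, n = 3), and the order of the KPYYF libraries was the reverse of that for Scd1. At 1.09 (SE 0.32), the log2 fold change of Elovl5 had an unadjusted p of 0.00439 and an adjusted p of 0.118 in edgeR's quasi-likelihood test, with p = 0.0238 from the exact permutation test. It was 0.58 without KPYYF library 4449 and 0.50 without that library and KPF libraries 4504s and 4601.

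Elovl6, which elongates palmitate, had a log2 fold change of 0.75 (SE 0.56) and Elovl1, which makes very long chains, −0.68 (SE 0.45). Fads1, the delta-5 desaturase, had 0.38 (SE 0.67). Fads2, the delta-6 desaturase (chromosome 19, 10062765 to 10101746), was close to the limit of detection in most libraries. It was at 0 to 7.18 CPM in KPF (median 0.575) and at 0.119, 0 and 2.08 CPM in KPYYF libraries, and its 2 highest values were in KPF libraries 4504s and 4601. The log2 fold change of −1.47 had a SE of 2.01 (edgeR adjusted p = 0.787; exact permutation test, p = 0.512), and it was −4.84 without KPYYF library 4938. The exact permutation tests given here were 13 in all, unadjusted, two-sided and on genes picked for the size of their change or the study's rule.

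**Figure D4:**
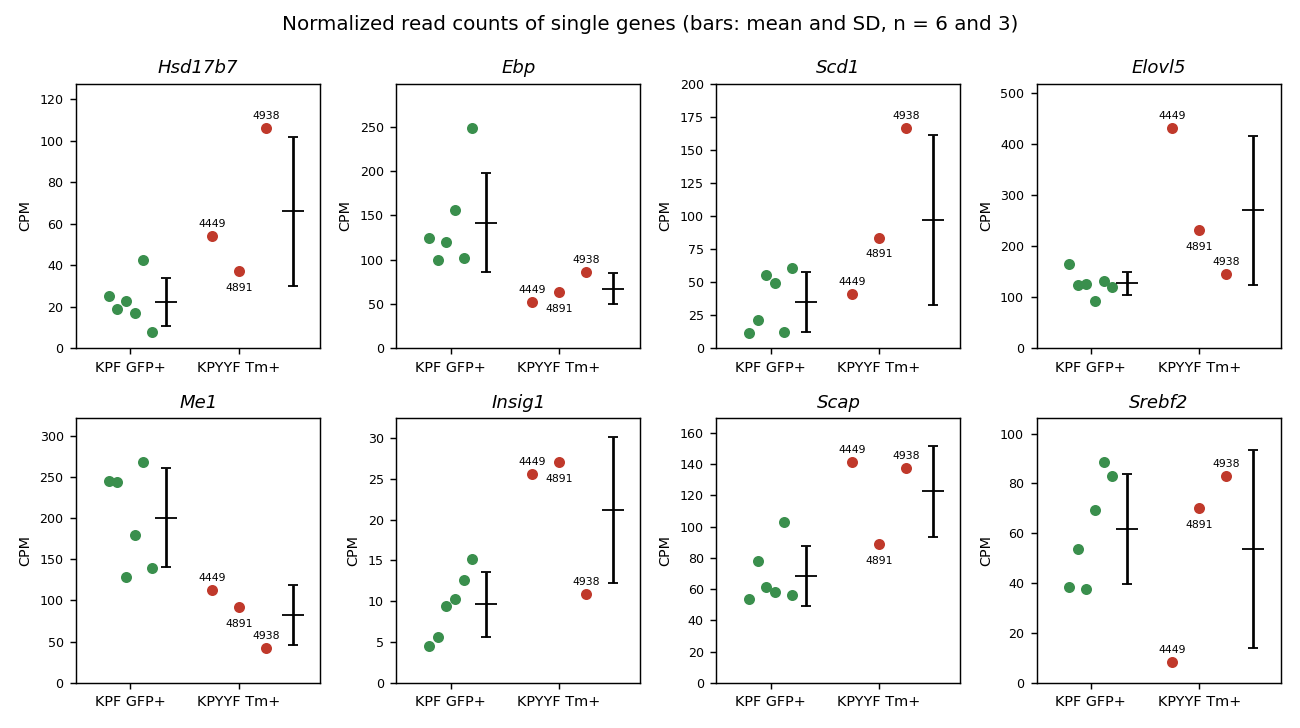
CPM of 8 members in each KPF GFP+ (green, n = 6) and KPYYF Tm+ (red, n = 3, labelled by mouse) library, with the mean and SD beside each group. The groups do not overlap for Ebp and Me1, while Srebf2 is low in KPYYF library 4449 alone, at 8.31 CPM.

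Pairs of members in the same library gave a comparison that library scaling cannot alter. The ratio of Hsd17b7 to Ebp reads, enzymes of neighboring steps, was 0.0305 to 0.418 in KPF and 1.04, 0.593 and 1.23 in KPYYF libraries 4449, 4891 and 4938. The ratio of Elovl5 to Me1 reads was 0.494 to 0.975 in KPF and 3.83, 2.53 and 3.50 in KPYYF libraries. In both pairs all KPYYF libraries were above all KPF libraries. The pairs were picked after the values were seen and combine a higher with a lower gene, so the direction follows from the choice, and no test was made. Ratios picked in this way describe these libraries, and do not show that the genes of a pair changed or which of them did.

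The neighboring lipid pathways, as lists, also held 0 genes with an adjusted p under 0.05 in edgeR's quasi-likelihood test. At an unadjusted p under 0.05 there was 1 gene of sterol uptake, storage and efflux, 5 of other fatty acid synthesis, 4 of triglyceride synthesis, and 0 of the isoprenoid branch, SREBP processing and fatty acid oxidation, beside the 16.1% of all genes tested. The median log2 fold change was −0.17 for 10 isoprenoid genes (from −0.95 for Coq2 to 0.52 for Pdss1) and −0.03 for 7 genes of SREBP processing (up to 0.32 for Rnf139). For 13 genes of sterol uptake, storage and efflux it was −0.05, and by the study's rule 1 was lower, Npc1, which exports cholesterol from lysosomes. Npc1 was at 47.6 to 78.3 CPM in KPF and at 19.0, 21.2 and 35.3 CPM in KPYYF libraries, without overlap (log2 fold change −1.34, SE 0.35, edgeR adjusted p = 0.0912).

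Of 20 other genes of fatty acid synthesis, 13 were tested, with a median of −0.23. Hacd1, a dehydratase of chain elongation, was higher by the study's rule, at 19.6 to 35.4 CPM in KPF and 37.8, 57.3 and 93.0 CPM in KPYYF libraries (log2 fold change 1.13, SE 0.35, edgeR adjusted p = 0.136). Fads3, a further member of the desaturase cluster, was lower, at 25.8 to 68.6 CPM in KPF and 19.6, 7.00 and 11.1 CPM in KPYYF libraries (log2 fold change −1.93, SE 0.46, edgeR adjusted p = 0.0643). Neither gene overlapped between groups. Acss1, the mitochondrial relative of Acss2, and Elovl7 were also lower by the rule, with log2 fold changes of −4.40 and −1.66. Acss1 ranged from 0.307 to 26.8 CPM among the KPF libraries themselves.

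In the 14 genes of fatty acid activation and triglyceride synthesis the median was −0.51, with 4 above and 10 below 0. Gpam, the acyltransferase that starts glycerolipid synthesis, was higher by the rule with 3.43 (SE 1.45), at 0 to 2.39 CPM in KPF and 16.7, 3.83 and 2.74 CPM in KPYYF libraries. Dgat2, which makes triglyceride, Plin2, which coats lipid droplets, and Pnpla2, the droplet lipase, were lower by the rule with −1.57, −1.19 and −1.17. The 13 tested genes of fatty acid oxidation had a median of −0.56, with 1.30 for Eci1 as the highest, and 0 met the rule.

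**Figure D5:**
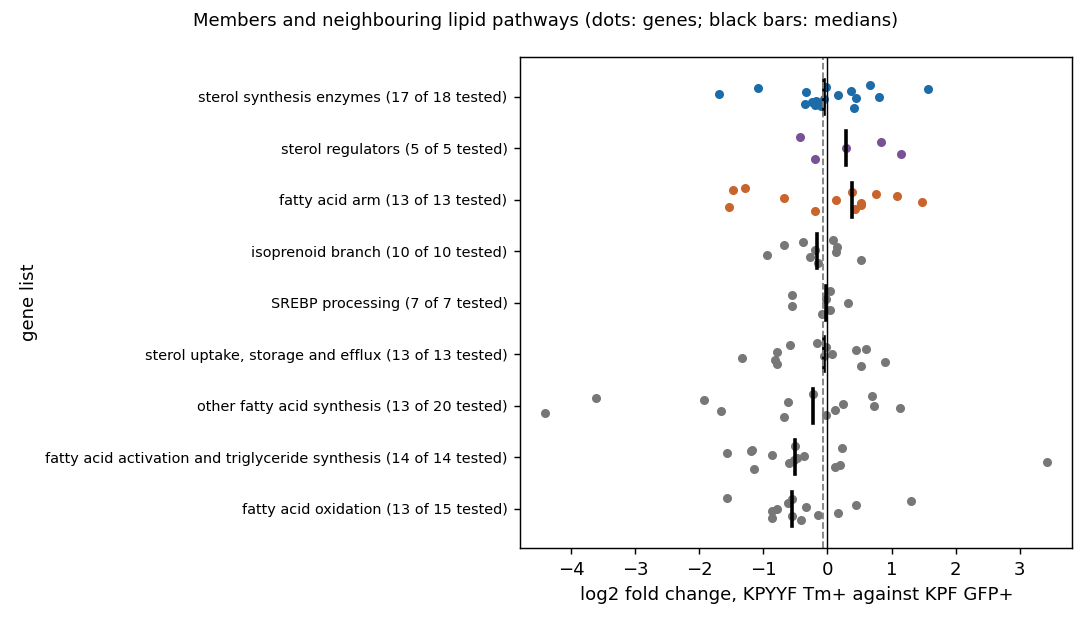
Log2 fold changes of the members' 3 groups (colored) and of 6 neighboring lipid lists (grey), KPYYF Tm+ against KPF GFP+ libraries, with black bars for medians and a dashed line at −0.07, the median of all genes tested. Medians run from −0.56 for fatty acid oxidation to 0.38 for the fatty acid arm, and each list has genes on both sides of 0.

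Other features of the libraries moved with the comparison. Of 17 proliferation genes, 16 had a log2 fold change above 0, with sums of 371 to 849 CPM in KPF and 1141 to 1576 CPM in KPYYF libraries. By the study's rule 10 of the 17 were higher, beside 4.20% of all genes tested. In edgeR's quasi-likelihood test 0 of them had an adjusted p under 0.05, and the smallest was 0.0514. All 9 ductal epithelial markers had a log2 fold change below 0, and 6 were lower by the rule, beside 9.20% of all genes tested. In the same test 3 of the 9, Krt18, Cdh1 and Muc1, had an adjusted p under 0.05, beside 0.794% of all genes tested in the lower direction. The part of the proliferation genes and of these markers in the lipid gene levels was not tested. Adipocytes and hepatocytes, which are rich in lipid synthesis, were looked for by their markers. The 9 adipocyte markers summed to 35.4 to 171 CPM in KPF and 37.3 to 44.5 CPM in KPYYF libraries. The sum was highest in KPF library 4601, with Cfd at 39.5 and Adipoq at 3.35 CPM, while Lep was at 0 throughout. The 8 hepatocyte markers summed to 9.81 to 321 CPM in KPF and 0.548 to 18.0 CPM in KPYYF libraries. Their sum was highest in KPF library 4269, with Ttr at 258 and Apoa1 at 48.1 CPM, while Tat was at 0 throughout. The part of such cells in the lipid gene levels was not tested. In KPF and KPYYF libraries, the 7 endothelial markers summed to 10.9 to 67.8 CPM and 10.5 to 15.0 CPM. The 8 islet markers summed to 2.45 to 103 CPM and 4.71 to 11.2 CPM, and the 8 fibroblast markers to 315 to 4349 CPM and 433 to 2272 CPM.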

How the data were processed

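RNA of sorted mouse PDAC cells was measured in 9 libraries (6 KPF, 3 KPYYF), grouped by the genotype in the sample labels. The authors deposited 1 file per library with raw counts of reads per Ensembl gene, made with the Lexogen QuantSeq 3′ Fwd kit and, in the submitters' processing notes, with STAR, HTSeq and mm10. Versions, the annotation and the strand setting are not given in the sources used here. Reads where genes overlap may thus have been left out or counted for the other gene. As ambiguous, 0.231 to 0.312% of all reads were left out. The methods name expression BeadChips, whereas the files hold whole counts whose totals vary by library. Reads on genes were 37.3 to 42% of all, and summary lines were left out. Reads were not marked by molecular identifiers, so depth limits cover counting error only.

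Ensembl identifiers were matched to symbols in GENCODE M21 (47224 of 47643), and all 36 members were found. The 14105 genes with 100 or more counts in all were scaled by TMM and tested two-sided with edgeR 4.0.16 (glmQLFit, robust) in R 4.3.3, without covariates, at an adjusted p of 0.05. The study's rule, an unadjusted p of 0.05 with 2-fold change, was applied to these p values too, whereas the study used DESeq2. Log2 CPM used a prior count of 2, and exact permutation tests used all 84 assignments of libraries to groups. Alternatives were DESeq2 1.42.0, limma-voom (limma 3.58.1) with sample weights, RLE, upper quartile and total count scaling, other filters, 4504h and 4504s summed, libraries with at least 1000 Xist reads, and each library left out. Leaving out 4504s, 4601 and 4449 together was added after seeing the data. The code was tested on simulated counts whose changes were larger than those fitted for the members and whose spread was not fitted to these data. Its power for changes of the members' size was not tested.

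Values in single libraries are given for members called by a threshold and for the 2 highest and 2 lowest fold changes of each group, and for Hmgcs1, Mvk, Sqle, Cyp51, Fasn and Scd2, which were picked after their values were seen. In the neighboring lists, called genes or the extremes are named, except that 1 allele of the mice and the values of 2 genes are not reported here. Members and lists were chosen with earlier results of these data known. Promoter windows are from RefSeq on GRCm38.p6.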

Additional observations from a re-analysis of the deposited data

Results flagged for a closer look

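Within the 6 KPF libraries, 1 value of Fdft1 and 1 of Fads1 lay far from the others on the log2 CPM scale, by Dixon's criterion for a gap next to the highest or lowest sample. Fdft1, squalene synthase, was at 15.2 CPM in KPF library 4269, against 37.3 to 60.4 CPM in the other KPF libraries, a gap of 0.650 of the whole range of log2 CPM. Fads1, the delta-5 desaturase, was at 1.77 CPM in KPF library 4515, against 22.9 to 52.0 CPM in the others, a gap of 0.750 of that range. On the CPM scale the gaps were 0.489 and 0.420 of the range, and neither met the criterion. The 3 KPYYF libraries had 25.3, 56.0 and 49.0 CPM of Fdft1 and 33.8, 49.97 and 52.5 CPM of Fads1. The same library 4515 had the lowest value of Elovl6, 4.43 CPM, which did not meet the criterion. Of 35 genes examined, 2 were found, and chance alone gives about 1 in 20.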

How the results depend on the processing

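Under 19 alternatives, members with an adjusted p under 0.05 appeared only with DESeq2, 2 higher and 1 lower of 35, where DESeq2 put 1.91% and 6.58% of all genes there. Members lower by the study's rule were 2, and 1 (Me1) with total counts only, with limma-voom, within the libraries high in Xist, and without 4504s, 4601 and 4449. The number of all genes lower by the rule moved as well. It was 1298 of 14105 in the main fit, 1171 of 14105 with total counts only and 1008 of 14105 with limma-voom. Within the libraries high in Xist it was 887 of 13077, and without 4504s, 4601 and 4449 it was 1222 of 13057. With each library left out in turn they were 1 to 3 (1 without KPF library 4601 or KPYYF library 4449), and members higher by the rule 2 to 4. The median of the sterol enzymes was 0.45 without 4504s, 4601 and 4449 and −0.32 to 0.24 with single libraries left out, the regulators' 0.17 to 0.52 and the fatty acid arm's 0.16 to 0.52. The Yap1 log2 fold change was −4.56 (adjusted p = 0.0771) with limma-voom, and −5.78 to −4.31 with single libraries left out. That of Srebf2 turned to 0.03 within the libraries high in Xist and 0.51 without the 3 libraries, and was −0.65 to 0.31 with single libraries left out. The cause was not tested. The rule held for Hsd17b7 and Me1 in 18 of 19 alternatives, for Scd1 and Elovl5 in 16 and for Ebp in 13. Total count scaling moved the median of all genes from −0.07 to 0.03. No paired analysis was possible because the groups came from different mice, with no mouse number shared between them. At this depth 3 reads are 0.292 to 0.437 CPM, which limits Fads2, Acss2, Idi1 and Tm7sf2.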

Other observations

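The spread between libraries was not wider in the KPYYF group for most members. The range of log2 CPM was wider among the 6 KPF libraries for 22 of the 35 tested members and among the 3 KPYYF libraries for 13, with medians of 1.46 and 1.30. Among KPYYF libraries it was widest for Acss2 (4.15), Mvk (3.96) and Fads2 (3.38), followed by Srebf2 (3.28) and Sqle (3.12). A range over 6 libraries tends to be larger than one over 3. The KPF range was widest for Fads2 (5.06), Fads1 (4.71) and Elovl6 (3.32). Low values in library 4515 set it for Fads1 and Elovl6.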
